A study of Homo sapiens with 10 samples.

Results

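The metallothionein genes, together with the transcription factor gene that controls them and the zinc exporter gene that shares this control, were measured in 2 human endothelial lines, EA.hy926 and HMEC-1. Members were the rows of the gene count table whose Ensembl identifier belongs in GENCODE 44 to MT1A, MT1E, MT1F, MT1G, MT1M, MT1X, MT2A, MTF1 or SLC30A1. All 9 were found among the 60448 genes of the table, and 8 of them passed the filter on low counts that left 16310 genes for the comparison of the lines. MT1G did not pass this filter and is given by its counts.

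RNA-seq was done on untreated, confluent cells, with 5 independent biological replicates of each line. EA.hy926 was made by fusing human umbilical vein endothelial cells with cells of the A549 lung carcinoma line and was kept in Advanced DMEM with 5% fetal bovine serum. HMEC-1 comes from the microvascular endothelium of skin, carries the SV40 large T antigen and was kept in MCDB 131 with 10% fetal bovine serum, hydrocortisone at 1 µg/mL and epidermal growth factor at 10 ng/mL. Both media held glutamine, gentamicin and penicillin. The study's general methods detach cells with trypsin unless stated otherwise, and its account of the RNA extraction names no such step. The zinc and copper content of the media and sera was not given in the sources used here. Each group is 1 established line, and the line and its medium cannot be told apart as the source of any difference below.

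Metallothioneins are small, cysteine-rich proteins that bind zinc and copper, buffer the free zinc of the cytosol and take up toxic metals such as cadmium. Their genes are switched on when MTF1, a zinc finger transcription factor that senses free zinc, binds short metal response elements in their promoters, and glucocorticoids and oxidative stress also raise several of them. In endothelial cells metallothioneins are known for holding zinc that nitric oxide can release.

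The metal response elements are the sequence feature by which these genes are known, so promoters are shown here with them in capitals. RefSeq promoter sequences (GRCh38.p14) were held for 4 of the 9 members, MT2A, MT1X, SLC30A1 and MTF1, and for 7 of the 23 genes of the family and its partners. Each line below gives the 250 bases before the start site, 5′ to 3′ on the strand of the gene, and capitals mark every match to TGCACNC or TGCGCNC on either strand. The stretches are chr16:56608334-56608583 (plus strand) for MT2A, chr16:56682220-56682469 (plus strand) for MT1X, chr1:211579162-211579411 (minus strand) for SLC30A1 and chr16:56669564-56669813 (plus strand) for MT1H, a family gene without counts.
MT2A: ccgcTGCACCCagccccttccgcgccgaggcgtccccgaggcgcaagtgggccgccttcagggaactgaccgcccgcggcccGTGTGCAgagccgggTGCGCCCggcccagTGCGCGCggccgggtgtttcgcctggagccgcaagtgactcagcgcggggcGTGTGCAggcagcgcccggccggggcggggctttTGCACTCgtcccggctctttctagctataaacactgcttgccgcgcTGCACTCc
MT1X: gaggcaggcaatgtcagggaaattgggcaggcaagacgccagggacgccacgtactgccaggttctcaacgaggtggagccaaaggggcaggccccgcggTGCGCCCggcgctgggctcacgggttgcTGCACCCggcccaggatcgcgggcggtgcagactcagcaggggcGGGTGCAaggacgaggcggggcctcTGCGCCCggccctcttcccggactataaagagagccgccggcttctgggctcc
SLC30A1: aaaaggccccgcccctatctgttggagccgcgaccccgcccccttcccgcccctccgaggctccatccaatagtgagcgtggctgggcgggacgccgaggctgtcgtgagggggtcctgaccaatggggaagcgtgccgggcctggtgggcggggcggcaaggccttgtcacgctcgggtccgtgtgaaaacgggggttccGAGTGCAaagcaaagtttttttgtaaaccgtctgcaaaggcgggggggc
MT1H: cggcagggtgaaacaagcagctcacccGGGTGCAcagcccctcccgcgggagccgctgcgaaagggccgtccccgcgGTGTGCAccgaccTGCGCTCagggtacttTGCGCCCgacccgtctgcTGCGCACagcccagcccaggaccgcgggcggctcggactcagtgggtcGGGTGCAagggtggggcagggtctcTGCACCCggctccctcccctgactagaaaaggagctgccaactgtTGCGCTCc

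The MT2A promoter held 7 matches, MT1X 4, SLC30A1 1 and MTF1 0. Of 35116 promoter stretches of this length, 24.8% held at least 1 match, 0.37% at least 4 and 0.0313% at least 7. One match lay at almost the same place in these family genes, from -54 to -48 in MT2A and from -53 to -47 in MT1X, MT1B and MT1H, counting back from -1 at the base before the start. In SLC30A1 the single match lay from -49 to -43 on the opposite strand. No matches overlapped each other. MT1H held 8 matches, and MT1B and MT4 held 3 each, although these 3 genes had no count in any library. The antioxidant response element TGACNNNGC occurred once each in MT2A, MT1X, SLC30A1 and MT1B, outside the metal response elements, and in 10.9% of all stretches. AGAACA, a single arm of the glucocorticoid response element, occurred in none of the 7 stretches and in 12.4% of all. Only exact copies of AGAACA inside these stretches were counted, so an element with other letters or farther from the start would be missed. Its absence here therefore cannot show that a gene lacks a glucocorticoid response element. All matches given here are letters in a window, and binding was not measured.

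**Figure D1:**
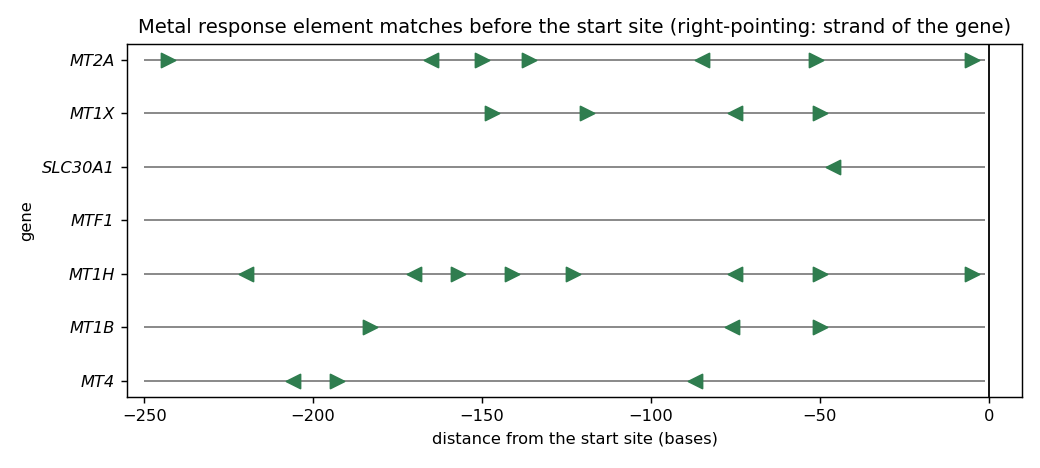
Matches to the metal response element (triangles, pointing right on the strand of the gene and left on the other) in the 250 bases before the start site of 7 genes, with the distance from the start in bases on the horizontal axis. MT2A holds 7 matches and MT1H 8, MTF1 holds 0, and MT2A, MT1X, MT1B and MT1H share a match that starts at -54 or -53.

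Libraries held 34846046 to 39899324 counts (EA.hy926) or 33391640 to 43877224 counts (HMEC-1). Levels are CPM, counts scaled to a common library size with TMM factors, and 3 counts made 0.0781 to 0.0904 CPM in EA.hy926, and in HMEC-1 they made 0.0651 to 0.0856 CPM. This floor covers counting error only. A log2 fold change (log2FC) above 0 means higher in EA.hy926, and a gene was called when its adjusted p in edgeR's quasi-likelihood test was under 0.05 and its absolute log2FC over 1. The lines differed widely: 35.5% of the genes tested were called, 19.1% higher in EA.hy926 and 16.4% higher in HMEC-1, 85.8% passed the adjusted p alone, and in 77.4% the CPM values of the lines did not overlap. Of 10 endothelial markers none was at or under 3 counts throughout a line, and their summed level was 4192 to 4835 CPM in EA.hy926, while HMEC-1 had 1558 to 1597 CPM. PECAM1, CDH5 and VWF were all detected in both lines. The summed level of 10 epithelial markers was 1275 to 1389 CPM in EA.hy926, while HMEC-1 had 425 to 487 CPM, with 4 of the 10, CDH1 among them, at or under 3 counts in every library of either line. Of the 6 epithelial markers tested, 4 were called, and these split into 2 higher in EA.hy926 and 2 higher in HMEC-1. The part of these markers in the results below was not tested. In bulk RNA, fewer cells of a type and less RNA per cell cannot be told apart.

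Metallothionein transcripts were abundant in both lines, and the lines differed in which genes made them. MT2A was the leading gene in both and was 1.81-fold higher in EA.hy926, MT1E was 2.99-fold higher in HMEC-1, and MT1A, MT1F and MT1M had counts in HMEC-1 only. MT1X was the single MT1 gene that was higher in EA.hy926. The exporter gene SLC30A1 was 1.53-fold higher in EA.hy926, and MTF1 differed little.

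Of the 9 members, 5 were called, against a background of 35.5% of genes. MT1X was called higher in EA.hy926 (background 19.1%), and MT1A, MT1E, MT1F and MT1M higher in HMEC-1 (background 16.4%). All 8 members tested passed the adjusted p, as did 85.8% of genes, 3 of them higher in EA.hy926 (background 42.6%) and 5 higher in HMEC-1 (background 43.3%). In 7 of the 8 the lines did not overlap, as in 77.4% of genes, and 4 of these were higher in HMEC-1 (background 39.2%). MT1A, MT1F and MT1M passed the filter only through HMEC-1 and so had to differ. MT1X passed it only through EA.hy926, with 22 to 55 counts there and 7 to 14 in HMEC-1. The counts over members describe these genes and support nothing further. The median log2FC of the 8 was -0.86, and that of all genes tested was -0.01. The filter put MT1A, MT1F and MT1M on the negative side, which lowers this median, so it shows no shift of the family. Placing these genes at their bounds leaves them on that side and the median unchanged.

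**Figure D2:**
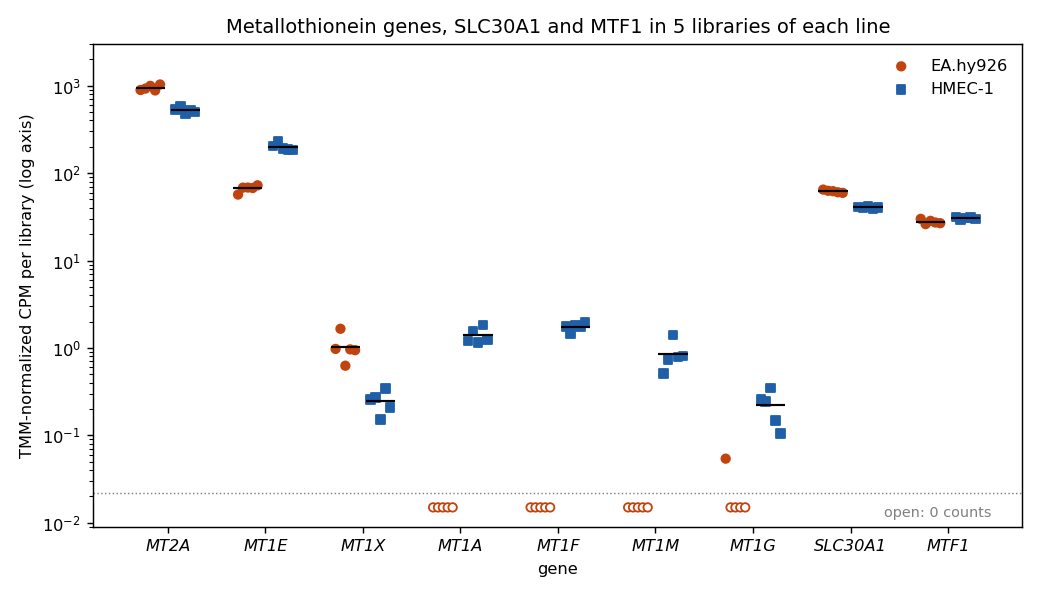
TMM-normalized CPM (log axis) of the 9 members in each of 5 EA.hy926 (circles) and 5 HMEC-1 libraries (squares), with a line at the mean where every library had counts and open symbols for 0 counts. MT2A is at 882 CPM or more in EA.hy926 and MT1E at 185 CPM or more in HMEC-1, MT1A, MT1F and MT1M have counts in HMEC-1 only, and the MTF1 points of the lines overlap.

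MT2A (ENSG00000125148) encodes the most widely expressed human metallothionein and lies at chr16:56608584-56609497 on the plus strand (GRCh38, as are all gene positions). Its counts were 32983, 30767, 34954, 33898 and 38318 in EA.hy926 replicates 1 to 5. They were 18690, 23632, 22051, 21245 and 19245 in HMEC-1. Every EA.hy926 library was above every HMEC-1 library, and the groups stood well apart. The level was 946 ± 65.5 CPM in EA.hy926, while HMEC-1 had 523 ± 37.6 CPM (mean ± SD, n = 5 each). The log2FC was 0.85 (SE 0.046, edgeR adjusted p = 1.4e-13), which is under the fold threshold, and leaving out any 1 library gave 0.81 to 0.89.

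MT1E (ENSG00000169715), one of the inducible MT1 metallothioneins, lies at chr16:56625475-56627112 on the plus strand. Its counts were 2099, 2264, 2400, 2596 and 2692 in EA.hy926 and 7122, 9472, 8825, 7587 and 7056 in HMEC-1. All HMEC-1 libraries were far above all EA.hy926 libraries. The level was 66.7 ± 5.86 CPM in EA.hy926, while HMEC-1 had 199 ± 19.7 CPM (SD, n = 5 each), and the log2FC was -1.58 (SE 0.059, edgeR adjusted p = 3.0e-16). MT1E and MT2A therefore moved in opposite directions between the lines. For each 100 counts of MT2A there were 6.36 to 7.66 counts of MT1E in the EA.hy926 libraries and 35.7 to 40.1 in the HMEC-1 libraries. This ratio is taken within a library and does not depend on how libraries are scaled.

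MT1A, MT1F and MT1M are MT1 genes of the same cluster that encode proteins closely alike in sequence. MT1A (ENSG00000205362) lies at chr16:56638666-56640087, MT1F (ENSG00000198417) at chr16:56657731-56660698 and MT1M (ENSG00000205364) at chr16:56632659-56633981, all on the plus strand. None had a count in any of the 5 EA.hy926 libraries, as was so for 1.85% of the genes tested. In HMEC-1 all 3 were detected in every library, at low levels.

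The HMEC-1 counts of MT1A were 42, 64, 53, 75 and 47. Its level there was 1.40 ± 0.298 CPM (SD, n = 5), and the EA.hy926 level of MT1A was lower by at least 15.5-fold, where 3 counts in a library set the bound (edgeR adjusted p = 7.3e-11). The HMEC-1 counts of MT1F were 62, 59, 84, 71 and 75. These libraries lay close together at 1.75 ± 0.189 CPM (SD, n = 5), and the EA.hy926 level of MT1F was lower by at least 19.3-fold (edgeR adjusted p = 3.9e-12). For MT1M the HMEC-1 counts were 18, 30, 65, 32 and 31, with replicate 3 above the others. Its level was 0.851 ± 0.334 CPM (SD, n = 5), and the EA.hy926 level of MT1M was lower by at least 9.41-fold (edgeR adjusted p = 1.2e-08). MT1A, MT1F and MT1M passed the filter only through HMEC-1 and so had to differ, which limits what these p values show.

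MT1G (ENSG00000125144), an MT1 gene on the minus strand at chr16:56666730-56668065, had 2, 0, 0, 0 and 0 counts in EA.hy926 and 9, 10, 16, 6 and 4 in HMEC-1. The HMEC-1 libraries were higher, and the groups did not overlap. The mean in HMEC-1 was 0.220 ± 0.0958 CPM (SD, n = 5), so the EA.hy926 level was lower by at least 2.44-fold. MT1G was tested only without the filter on low counts, where it was called higher in HMEC-1 (edgeR adjusted p = 3.1e-07). The adjusted p of that fit is on another scale. For FTL it was 3.3e-296, against 6.4e-18 in the main edgeR fit, so the MT1G value cannot be set beside the others.

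MT1X (ENSG00000187193), at chr16:56682470-56684196 on the plus strand, was the exception among the MT1 genes. Its counts were 36, 55, 22, 37 and 35 in EA.hy926 and 9, 11, 7, 14 and 8 in HMEC-1. Each EA.hy926 library was above each HMEC-1 library, with replicate 2 the highest and replicate 3 the lowest of the EA.hy926 libraries. The level was 1.03 ± 0.378 CPM in EA.hy926, while HMEC-1 had 0.246 ± 0.0714 CPM (SD, n = 5 each), and the log2FC was 2.06 (SE 0.28, edgeR adjusted p = 7.4e-07). MT1X passed the filter on low counts only through EA.hy926, the line where it is higher. In the annotation, 165 of the 404 bases of its canonical transcript, or 40.8%, also lie in exons of ENSG00000259827, a gene on the same strand that was listed at 0 counts in all libraries. How the counting treated reads in both genes was not given in the sources used here, so the level of MT1X is uncertain. No other member overlaps another annotated gene in its exons.

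Near-identical copies can also share reads. At a length of 50 bases, 1.24% (MT1F) to 18.7% (MT1X) of the stretches of the 7 metallothionein members also occurred in transcripts of other genes. At 100 bases this share was 11.6% for MT1X and 0% for MT1A, MT1E, MT1F, MT1G, MT1M and MT2A. Only exact matches were counted, so stretches that differ by a base are not covered. The treatment of reads that align to several places was not given in the sources used here.

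The 7 metallothionein members together reached 1014 ± 69.4 CPM in EA.hy926, while HMEC-1 had 727 ± 55.2 CPM (SD, n = 5 each), a ratio of 1.39. The libraries ran from 951 to 1106 CPM and from 674 to 816 CPM, so the lines did not overlap. As a share of all library counts this was 0.0967% in EA.hy926 and 0.0761% in HMEC-1. The make-up of this sum differed as well. MT2A supplied 93.3% ± 0.442 of the counts in EA.hy926 and 72.0% ± 1.01 in HMEC-1 (SD, n = 5 each). MT1E supplied 6.58% ± 0.429 and 27.4% ± 1.03 (SD, n = 5 each). The 5 rarer genes MT1A, MT1F, MT1G, MT1M and MT1X summed to 1.04 ± 0.377 CPM in EA.hy926, nearly all of it MT1X, and to 4.46 ± 0.391 CPM in HMEC-1.

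**Figure D3:**
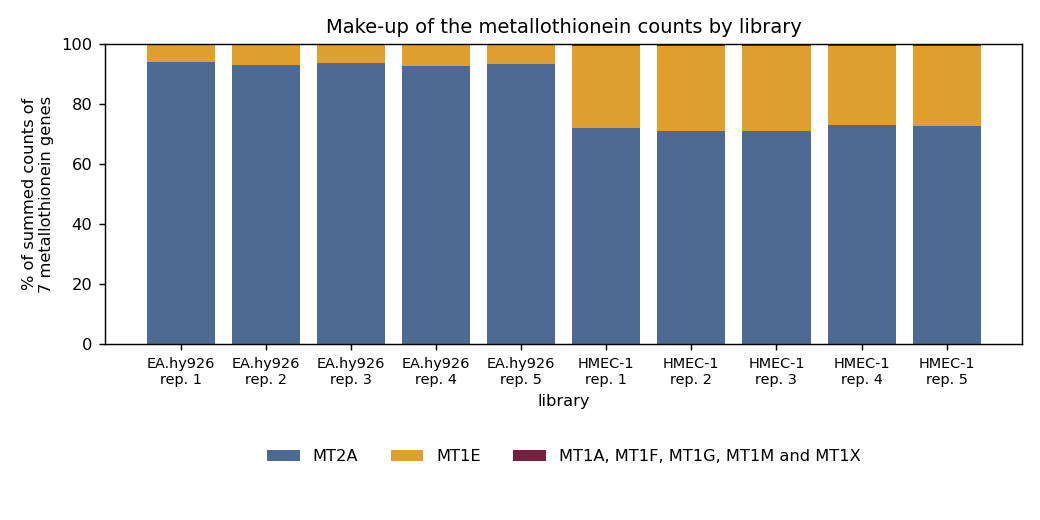
Share (%) of the summed counts of 7 metallothionein genes that came from MT2A, from MT1E and from the other 5 genes, in each of the 10 libraries. MT1E makes 6.58% on average in EA.hy926 and 27.4% in HMEC-1, the remainder is almost all MT2A, and the bar of the other 5 genes is barely visible.

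To compare levels between genes, CPM was divided by the exon length of each gene in kilobases. In EA.hy926 the order of these levels was MT2A (1035 CPM per kb), MT1E (63.4), SLC30A1 (10.5), MTF1 (3.47), MT1X (0.598) and MT1G (0.0144), with MT1A, MT1F and MT1M listed at 0. The library ranges of neighbours in this order did not overlap. In HMEC-1 the order was MT2A (572 CPM per kb), MT1E (190), SLC30A1 (6.87), MTF1 (3.80), MT1A (3.53), MT1M (1.67), MT1F (0.944), MT1G (0.293) and MT1X (0.143). Here MTF1 and MT1A overlapped, as did MT1M and MT1F, and MT1G and MT1X. MT1X thus stood above the other rare MT1 genes in EA.hy926 and below MT1A, MT1M and MT1F in HMEC-1. With the length of the canonical transcript alone, 3 of the 9 members kept their place in HMEC-1, and all kept it in EA.hy926.

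MTF1 (ENSG00000188786), the metal-sensing activator of these genes, lies at chr1:37809574-37859592 on the minus strand. Its counts were 1108, 866, 999, 1046 and 992 in EA.hy926 and 1102, 1192, 1408, 1262 and 1139 in HMEC-1. In CPM the highest EA.hy926 library lay within the HMEC-1 range, so the groups overlapped. The level was 27.7 ± 1.55 CPM in EA.hy926, while HMEC-1 had 30.4 ± 0.887 CPM (SD, n = 5 each). The log2FC was -0.13 (SE 0.042, edgeR adjusted p = 0.0056) and -0.27 with libraries scaled by their totals alone, a scaling that moved the median of all genes by -0.13.

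SLC30A1 (ENSG00000170385) encodes the ZnT1 transporter, which carries zinc out of the cell and is itself a classical MTF1 target. It lies at chr1:211571568-211579161 on the minus strand. Counts were 2393, 2084, 2183, 2319 and 2206 in EA.hy926 and 1427, 1635, 1919, 1610 and 1549 in HMEC-1. All EA.hy926 libraries were above all HMEC-1 libraries. The level was 61.9 ± 2.10 CPM in EA.hy926, while HMEC-1 had 40.5 ± 0.784 CPM (SD, n = 5 each), and the log2FC was 0.61 (SE 0.031, edgeR adjusted p = 5.9e-14).

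The family genes outside the 9 members were mostly silent. MT1B, MT1H, MT1HL1 and MT4, which encode further metallothioneins, had 0 counts in all 10 libraries. MT3, the brain metallothionein, had 2, 0, 0, 0 and 0 counts in EA.hy926 and 4, 4, 3, 8 and 8 in HMEC-1. Its HMEC-1 libraries were higher without overlap, at a level under the filter on low counts.

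Of 9 annotated pseudogenes, 2 had more than a handful of counts, and they went opposite ways. MT1L had 1, 0, 0, 1 and 0 counts in EA.hy926 and 67, 111, 70, 70 and 59 in HMEC-1, so that EA.hy926 was lower by at least 20.8-fold (edgeR adjusted p = 1.1e-12). MT1L passed the filter only through HMEC-1 and so had to differ. MT2P1 had 274, 205, 254, 350 and 253 counts in EA.hy926 and 24, 27, 30, 36 and 21 in HMEC-1 (log2FC 3.42, SE 0.136, edgeR adjusted p = 8.3e-16). MT1L was higher in the line with more MT1E and MT2P1 in the line with more MT2A, but neither kept a fixed proportion. For each 1000 counts of MT1E there were 0 to 0.476 counts of MT1L in EA.hy926, and HMEC-1 had 7.93 to 11.7. For each 1000 counts of MT2A there were 6.60 to 10.3 counts of MT2P1 in EA.hy926, and HMEC-1 had 1.09 to 1.69. MT1L lies wholly within the exons of another annotated gene, ENSG00000291105, which is not among the genes of the count table. Of the 50-base stretches of MT2P1, 15.7% occur in other genes. MT1DP, MT1JP, MT1P3 and MT1XP1 had at most 5 counts in a library, and MT1CP, MT1IP and MT1P1 had none.

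On chromosome 16 the annotated cluster holds 16 genes of the family over 119.1 kb. In EA.hy926 the counts lay at MT2A, at MT1E and, at the far end, at MT1X, with almost nothing at the genes between MT1E and MT1X. In HMEC-1 the same interval held MT1M, MT1A, MT1F and MT1G, and upstream of MT1E also MT1L. The tested genes around the cluster differed by less than the fold threshold. Of 16 annotated neighbours analysed within 250 kb, 5 were tested and 0 of the 5 were called, against 35.5% of all genes. All 5 passed the adjusted p (85.8% of all genes), and in all 5 the CPM values of the lines did not overlap (77.4% of all genes). BBS2, a part of the ciliary BBSome, was higher in EA.hy926 (log2FC 0.65). NUDT21 (log2FC -0.37), HERPUD1 (-0.31), OGFOD1 (-0.28) and NUP93 (-0.27) were higher in HMEC-1. With no filter on low counts, the neighbours GNAO1 (log2FC -2.37) and ENSG00000260823 (2.86) were called as well.

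**Figure D4:**
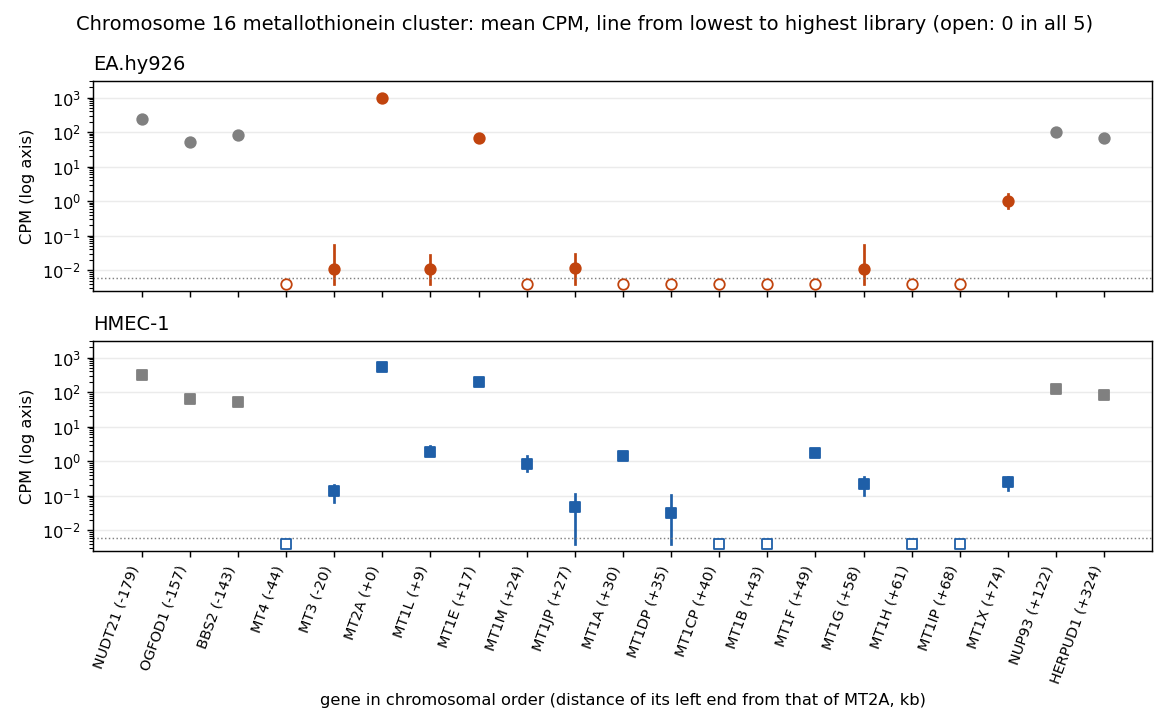
Mean CPM (log axis, line from the lowest to the highest of 5 libraries) of the family genes on chromosome 16 and, in grey, of their tested neighbours, in chromosomal order with the distance from MT2A in kb. Between MT1E and MT1X, EA.hy926 (top) has almost no counts, while HMEC-1 (bottom) has counts at MT1M, MT1A, MT1F and MT1G. None of the grey neighbours was called.

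Zinc enters the cytosol through SLC39A (ZIP) transporters and leaves it, to the outside or into vesicles, through SLC30A (ZnT) transporters. Of 14 importer genes 11 were tested. Of these, 6 were higher in EA.hy926 and 4 higher in HMEC-1 at the adjusted p, 3 were called, all higher in EA.hy926, and the median log2FC was 0.06. Over all genes these shares were 42.6% and 43.3% at the adjusted p, 35.5% called and 19.1% called higher in EA.hy926, and the median was -0.01. With library totals 5 were higher in EA.hy926 and 6 in HMEC-1, the median was -0.07, and SLC39A7 (log2FC -1.02) was called as well. SLC39A11 was at 43.5 ± 1.52 CPM in EA.hy926, while HMEC-1 had 5.82 ± 0.276 CPM (SD, n = 5 each; log2FC 2.90, SE 0.047). SLC39A8, which also carries cadmium and manganese, was at 7.40 and 1.29 CPM (log2FC 2.52, SE 0.126), and SLC39A4, the intestinal zinc importer, at 3.72 and 1.38 CPM (log2FC 1.45, SE 0.142). All 3 were higher in every EA.hy926 library than in any HMEC-1 library.

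Of 10 exporter genes other than SLC30A1, 6 were tested, and all 6 were higher in HMEC-1 at the adjusted p, as were 43.3% of all genes, with a median log2FC of -0.48. SLC30A1 was higher in EA.hy926. SLC30A3 and SLC30A4, which load zinc into vesicles, were the 2 called, a share of 33.3% that is close to the 35.5% of all genes. Both were higher in HMEC-1, as were 16.4% of all genes. SLC30A4 was at 6.45 ± 0.836 CPM in EA.hy926, while HMEC-1 had 17.5 ± 1.55 CPM (SD, n = 5 each; log2FC -1.45, SE 0.081). SLC30A3 was at 1.08 CPM in HMEC-1, and its EA.hy926 level, at 0 to 2 counts, was lower by at least 11.9-fold. It passed the filter only through HMEC-1 and so had to differ.

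Of 10 copper genes tested, 6 were higher in EA.hy926 and 3 in HMEC-1 at the adjusted p (42.6% and 43.3% of all genes), and 1 was called (35.5% of all genes). This was ATP7B, a copper-exporting ATPase, at 0.551 ± 0.202 CPM in EA.hy926, while HMEC-1 had 7.59 ± 0.510 CPM (SD, n = 5 each; log2FC -3.77, SE 0.145). The median log2FC was 0.18, and with library totals 4 and 3 passed. Of 12 iron genes, 6 were higher in EA.hy926 and 4 in HMEC-1, and 3 were called, all higher in EA.hy926 (19.1% of all genes), with a median log2FC of 0.10. With library totals 5 and 5 passed, and the median was -0.03. SLC40A1 (ferroportin, the iron exporter) had a log2FC of 5.18 (SE 0.139), STEAP3, a ferrireductase, of 1.67 (SE 0.037), and FTL, the ferritin light chain, of 1.01 (SE 0.031). SLC40A1, at 6 to 14 counts in HMEC-1, passed the filter only through EA.hy926. FTL lay at the fold threshold and was no longer called without HMEC-1 replicate 1 (log2FC 0.992), 3 (0.985) or 4 (0.995), with library totals (0.878), with no filter on low counts (0.993) or under glmTreat, a test against a log2FC of 1 (adjusted p = 0.41).

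Of 6 other genes known as MTF1 targets, 4 were higher in EA.hy926 and 2 in HMEC-1 at the adjusted p (42.6% and 43.3% of all genes), and 4 were called (35.5% of all genes). PGF, a ligand of the VEGF family, was at 126 ± 12.4 CPM in EA.hy926, while HMEC-1 had 38.8 ± 1.54 CPM (SD, n = 5 each; log2FC 1.69, SE 0.052). SELENOH, a selenoprotein, and GCLC, the catalytic subunit of glutathione synthesis, were barely past the fold threshold (log2FC 1.04 and 1.02), and GCLC was not called without HMEC-1 replicate 2 (0.981). CSRP1, a LIM domain protein, was higher in HMEC-1 (log2FC -1.11, SE 0.027). With library totals, 2 of the 6 were called.

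**Figure D5:**
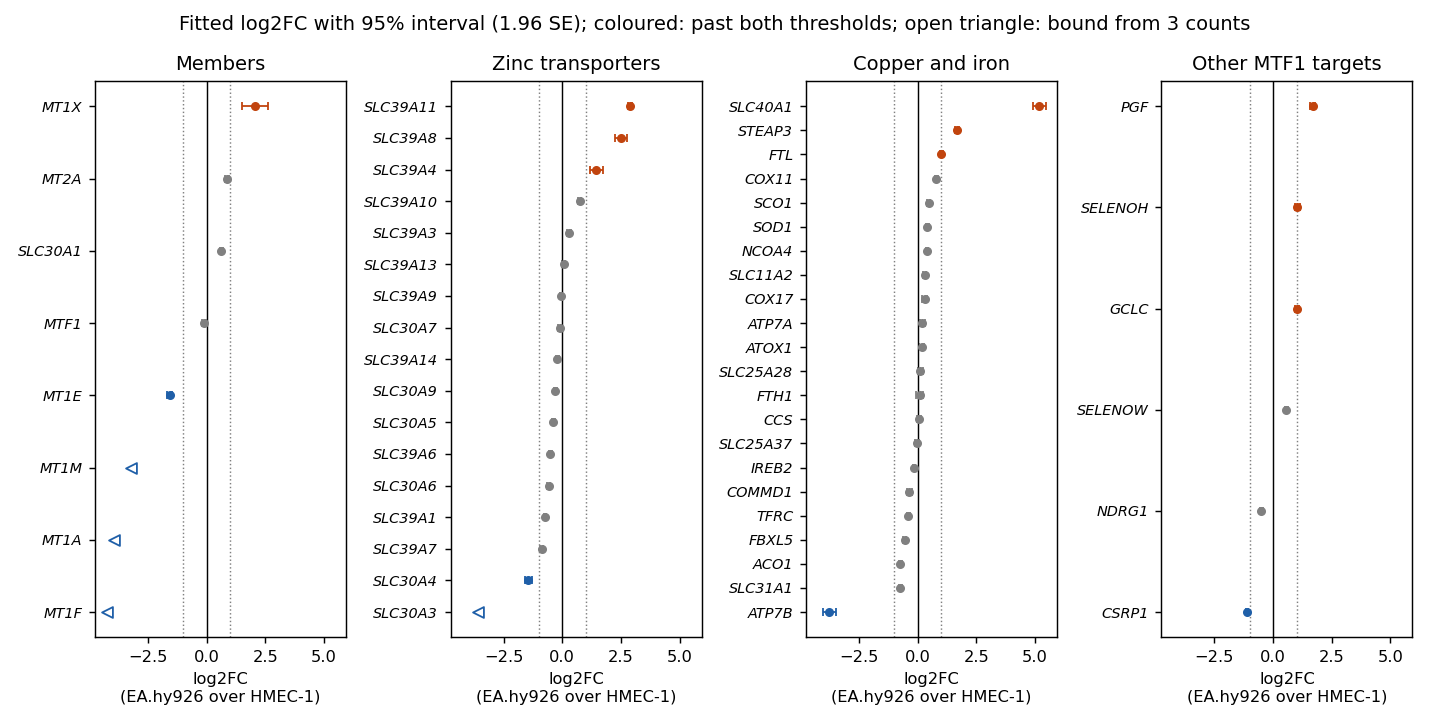
Fitted log2FC (EA.hy926 over HMEC-1) with its 95% interval for the members and for zinc, copper, iron and other MTF1 target genes. Coloured points were called, grey points were not, dotted lines mark log2FC of -1 and 1, and open triangles mark bounds where EA.hy926 had at most 3 counts in every library. MT1X lies to the right and MT1E, MT1M, MT1A and MT1F to the left of these lines.

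Glucocorticoids and oxidative stress also act on metallothionein genes, and hydrocortisone was in the HMEC-1 medium alone. Of 12 glucocorticoid target genes, the receptor gene NR3C1 included, 9 were higher in HMEC-1 and 2 in EA.hy926 at the adjusted p, and 8 and 1 were called, with a median log2FC of -1.63. Over all genes these shares were 43.3% and 42.6% at the adjusted p and 16.4% and 19.1% called. ZBTB16, a zinc finger repressor, was at 13.1 CPM in HMEC-1 with an EA.hy926 level lower by at least 145-fold, and it passed the filter only through HMEC-1. KLF9 had a log2FC of -3.63 (SE 0.044) and PER1, a clock gene, of -3.30 (SE 0.048). TSC22D3, which encodes GILZ, was the 1 called the other way (log2FC 1.40, SE 0.040). MT1E, MT1A, MT1F and MT1M shared the direction of most of these genes, and MT2A and MT1X did not. The part of hydrocortisone in these values was not tested. Of 12 oxidative and heat stress genes, 8 were higher in EA.hy926 and 2 in HMEC-1 (42.6% and 43.3% of all genes), and 4 were called, all higher in EA.hy926 (19.1% of all genes), with a median log2FC of 0.40. With library totals 7 and 4 passed. OSGIN1 (log2FC 2.38), SRXN1 (2.04) and NQO1 (1.74), all known NRF2 targets, were the highest of them.

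Among replicates of a line, MT1E and MT2A tended to deviate together (r = 0.75 on log2 CPM centred within each line, 10 libraries), and MT1E and MTF1 in opposite senses (r = -0.67). MT2A and MTF1 had r = -0.29, MT2A and SLC30A1 -0.51, MT1E and SLC30A1 -0.56, and MTF1 and SLC30A1 0.51. Of 13104 genes outside the family whose counts were never under 10, the 5 most like the summed metallothionein level by this measure were MFF (r = 0.95), ACTB (0.94), FIS1 (0.92), ZBTB43 (0.92) and EBNA1BP2 (0.92), with Spearman's rho of 0.89, 0.85, 0.94, 0.88 and 0.82. Without the 2 libraries farthest from the median, r was 0.91, 0.81, 0.79, 0.77 and 0.78. By Spearman's rho 1 of these 5, FIS1, was among the first 5. These points share library and depth, and with this many genes over 10 libraries the values are a description.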

How the data were processed

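Gene counts of 10 RNA-seq libraries, 5 of each line, were analysed. Poly(A) RNA was captured with oligo(dT), and the authors aligned the reads to GRCh38 with HISAT2. The deposited values are raw counts for each gene, without normalization or filter. The study's methods name HTSeq for the counting and the submitters' processing notes name featureCounts (with fastp and DESeq2), and the strand setting and annotation release are not given in the sources used here. Line and replicate came from the sample labels.

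Symbols, positions and lengths came from GENCODE 44, which matched 56434 of 60448 identifiers. The filter was filterByExpr (at least 10 counts, total at least 15). Libraries were scaled by TMM (factors 0.942 to 0.964 in EA.hy926, 1.04 to 1.05 in HMEC-1) and compared in R 4.3.3 by the quasi-likelihood F test of edgeR 4.0.16 (glmQLFit, glmQLFTest), without covariates, with Benjamini-Hochberg adjustment over all 16310 genes tested. SE is the absolute log2FC over the square root of F. A gene with at most 3 counts in every library of a line was given a bound, the ratio of the other line's mean CPM to the highest CPM that 3 counts make. Log2 CPM carried a prior count of 2.

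The members and lists were chosen with earlier results of these data known. All members and family genes are named, of other lists up to 3 called genes in each direction (up to 3 markers in marker lists), the tested neighbours (1 is not reported here), and the 5 genes most like the summed level. FIS1 is singled out by rank. Of 12 copper genes 11 were analysed here. Alternatives were DESeq2 1.42.0, limma-voom (limma 3.58.1), other filters, RLE factors, library totals, TMM factors without the metallothionein genes, a replicate block, glmTreat, single libraries left out, and other lengths. Tables and plots used pandas 2.3.3, numpy 2.4.6 and matplotlib 3.10.9 in Python 3.11.15.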

Additional observations from a re-analysis of the deposited data

Results flagged for a closer look

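Of 29 groups of 5 libraries (a gene of the family, MTF1, SLC30A1 or the summed level in 1 line), 4 held a library that stood apart from the others by Dixon's criterion. Chance meets it in about 1 of 20 groups of normally distributed values. Where the other libraries are at 0, any count in 1 library meets it, so that rate does not apply to such groups. All 4 flagged groups rest on a few counts. MT1G and MT3 were each at 0.0541 CPM (2 counts) in EA.hy926 replicate 1 and at 0 in the other EA.hy926 libraries. The pseudogene MT1DP was at 0.108 CPM (5 counts) in HMEC-1 replicate 3, where the others reached at most 0.0285 CPM. The pseudogene MT1P3 was at 0.0539 CPM (2 counts) in EA.hy926 replicate 5 and at 0 in the other EA.hy926 libraries. The cause was not tested.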

How the results depend on the processing

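Every member kept its direction in each setting that tested it. Leaving out single libraries moved the log2FC of MT1E between -1.62 and -1.52, of MT1X between 1.84 and 2.20 and of MT2A between 0.81 and 0.89, and changed no call of a member. With 10 or more counts required throughout, 4 members could be tested and 1, MT1E, was called, since MT1A, MT1F, MT1M and MT1X were removed, and 3255 of 13107 genes were called in all. With no filter, 9312 of 33071 were called and 6 of the 9 members, 5 of them higher in HMEC-1, MT1G being the one added. MT3, MT1DP and GNAO1 were then also called higher in HMEC-1, SLC30A8, TMEM163 and ENSG00000260823 higher in EA.hy926, and FTL was not called. Adjusted p values of the fit without a filter are not comparable with those of the main fit. Under glmTreat, which tests against a log2FC of 1, MT2A (0.85), SLC30A1 (0.61) and MTF1 (-0.13) had an adjusted p of 1. Other MTF1 targets called fell from 4 to 2 with library totals and to 2 with glmTreat, as the values of GCLC and SELENOH lie at the threshold. FTL lies there too, and without HMEC-1 replicate 1, 3 or 4, or with library totals, the copper and iron genes called fell from 4 to 3. With library totals, which moved the median of all genes by -0.13, MFF turned from 0.051 to -0.083. Per exon length MT2A made 94.2% and 74.5% and MT1E 5.77% and 24.7% of the metallothionein sum in EA.hy926 and HMEC-1. With unique 100-base stretches, 7 of the 9 members kept their place in HMEC-1. The order by canonical length was added after seeing the data. Replicate numbers are shared by the lines, and whether they pair the libraries was not given in the sources used here. Same-numbered pairs had r of -0.0024 to 0.066, and 4 of 10 libraries were closest to their own number. These values cannot show pairing or its absence. The replicate block gave 5786 calls in place of 5784 and the same count of 5 members. DESeq2 and limma-voom changed no call of a member. Genes at a few counts, MT1G and MT3 among them, are limited by depth.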
